A study of Mus musculus with 9 samples.

Results

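The genes described here build ribosomes. Of 54 listed genes for ribosome biogenesis and the nucleolus, 53 had a row in the count table of 24505 genes, and Noc2l is not analysed here. They were listed by name and function, and fall into 6 groups by role. These are RNA polymerase I and its factors (6 genes), the box C/D (3) and box H/ACA (4) small nucleolar ribonucleoproteins (snoRNPs), factors of the small (20) and large (15) ribosomal subunit, and abundant nucleolar proteins (5).

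Ribosome production starts in the nucleolus, where RNA polymerase I transcribes the ribosomal DNA into a long precursor. SnoRNPs guide methylation and pseudouridylation of this precursor, and successive complexes of assembly factors cut, fold and pack it with ribosomal proteins into the small and large subunits. The pathway is known as one of the costliest of growing and dividing cells, such as the spermatogonia that divide by mitosis before they enter meiosis.

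mRNA was measured by RNA sequencing in germ cells sorted by the EGFP of Uchl1-eGfp mice, whose transgene is under the Uchl1 promoter, bright in spermatogonia and dim in preleptotene (PL) spermatocytes, the cells that enter meiosis. The mice, of C57BL/6 origin and outcrossed to CD-1, all received a first course of the inhibitor of retinoic acid (RA) synthesis WIN18,446 by mouth (100 µg for each g of body weight) beginning at P1, whose last day is P10 in the design text and P11 in the records of all 9 samples. All of them were then given a single injection of RA (10 µl at 10 µg/µl) at P11, so that their spermatogonia differentiated in step. There were 3 libraries each of In/B spermatogonia taken at P17, of RA-sufficient PL taken at P19 after WIN18,446 was stopped, and of RA-deficient PL taken at P19 under WIN18,446 that was continued after the RA injection until collection. In/B came from the RA-sufficient regimen, so age and cell type change together in every comparison with In/B. Testes of litter mates were pooled for each preparation, and 2 or 3 independent preparations are stated, so the p-values measure the spread between these libraries, which may in part be technical. In such bulk libraries fewer cells of a type and less RNA per cell cannot be told apart.

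The libraries held 12612959 to 27042274 counts, and levels are given as CPM (counts scaled to libraries of equal size with TMM factors), of which 3 counts were worth 0.111 to 0.238 CPM. Fewer genes had any count in the RA-deficient libraries (14769 to 15327) than in the other 6 (16758 to 18434). Germ cell markers (Ddx4, Dazl, Mael, Tex101) summed to 2129 to 2680 CPM in In/B, 3107 to 4175 CPM in RA-sufficient PL and 5643 to 5700 CPM in RA-deficient PL. Between PL groups Dazl was at a log2 fold change of 0.986, and Ddx4, Mael and Tex101 were at 0.251 to 0.508. In RA-sufficient PL against In/B, Tex101 was at 2.081, Mael at 0.393, Dazl at -0.005 and Ddx4 at -0.321. The 7 markers of meiotic entry summed to 2023 to 2269 CPM in In/B and to 4719 to 9576 CPM in the PL libraries. The libraries did not follow their labels in every marker list. The 5 markers of differentiating spermatogonia summed to 1281 to 1667 CPM in In/B and 224 to 333 CPM in RA-sufficient PL, but to 1398 and 1366 CPM in RA-deficient PL libraries 1 and 2 against 321 CPM in library 3. This sum does not stand for each marker. In RA-deficient PL libraries 1 and 2 Dmrtb1 was at 94.8 and 82.8 CPM, below its 279 to 366 CPM in In/B. Sohlh2 was there at 205.5 and 197.8 CPM, above its 77.5 to 79.4 CPM in In/B. The 7 measured Sertoli cell markers, of 8 listed, summed to 2772 to 3621 CPM in RA-sufficient PL, 66.2 to 334 CPM in In/B and 290 to 512 CPM in RA-deficient PL, so markers of another cell type moved with the RA-sufficient group. The part of the Sertoli cell RNA and of the spermatogonial markers in the results below was not tested. The 6 peritubular and stromal cell markers summed to 59.0 to 84.0 CPM in In/B, 54.9 to 60.3 CPM in RA-sufficient PL and 94.3 to 112 CPM in RA-deficient PL. The sums of the PL groups differed mainly through Col1a1, at 47.1 to 70.7 CPM in In/B, 5.97 to 14.6 CPM in RA-sufficient PL and 57.8 to 69.6 CPM in RA-deficient PL. Between PL groups Acta2 went the other way (log2 fold change -2.075), Myh11 was at 0.873, and Col1a2, Dcn and Pdgfra were at -0.259 to 0.121. The part of these markers in the results was not tested either. The 7 markers of undifferentiated spermatogonia summed to 238 to 440.3 CPM in In/B, 163 to 247 CPM in RA-sufficient PL and 291 to 405 CPM in RA-deficient PL. Here too the sum does not stand for each marker. Between PL groups Zbtb16 (log2 fold change 1.385), Ret (0.891) and Nanos2 (0.382) were higher in RA-deficient PL. Gfra1, Id4, Etv5 and Lhx1 were lower there (-1.777 to -0.295). In RA-sufficient PL against In/B, Zbtb16 was at -1.593 and Ret at -0.199, and the other markers were at 0.13 (Nanos2) to 1.952 (Etv5). Leydig cell markers summed to 9.43 to 15.5 CPM in In/B, 32.4 to 37.4 CPM in RA-sufficient PL and 12.2 to 20.6 CPM in RA-deficient PL. Over the 9 libraries macrophage and blood cell markers summed to 3.29 to 8.53 CPM and spermatid markers to 1.07 to 6.61 CPM. The part of these lists in the results was not tested.

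Promoter sequences were read for the members because a part of them moved together. RefSeq promoter windows (build GRCm38.p6, from 250 bases before to 50 bases after each start) matched 47 of the 53 genes, and had no entry for Fbl, Utp6, Rrp12, Bop1, Rrs1 and Npm1. The windows were searched on both strands for 5 motifs. The E-box CACGTG, the letters bound by MYC and its relatives, was found in 9 of 47 members (19.1%), in 11.3% of the tested genes and in 8.09% of all promoters of that length. The letters CCGGAAGT, bound by ETS family factors, were found in 13 members (27.7%), in 7.95% of tested genes and in 4.31% of all promoters. TCTCGCGA was found in 4 members (8.51%), in 2.21% of tested genes and in 1.13% of all promoters. GCATGCGC, the letters of NRF1, was found in 4 members (8.51%, tested genes 5.59%, all promoters 3.05%), and CACGCG in 13 (27.7%, tested genes 19%, all promoters 10.5%). These matches are a description of the letters and not of binding.

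The 250 bases before the start are shown for 5 members whose levels the results below turn on and that hold a motif there, with the motif in capitals. Wdr43 and Utp20 were read too. Both are among the 9 members with the E-box in the longer window and were higher in RA-deficient than in RA-sufficient PL, but hold neither motif in these 250 bases. Rrn3 is also among the 13 members with CCGGAAGT in the longer window, though not in the bases shown. Rrn3 and Nop2, which were higher in RA-deficient than in RA-sufficient PL, hold the E-box, Rrn3 at 215 and 48 bases and Nop2 at 60 bases before the start. Nip7 and Emg1, which were lower in both PL groups than in In/B, and Heatr1, which was higher in RA-deficient PL, hold CCGGAAGT, at 103 bases in Nip7, at 120 and 44 bases in Emg1 and at 16 bases in Heatr1. The windows are chr16:13780449-13780698 on the plus strand for Rrn3, chr6:125131633-125131882 on the plus strand for Nop2, chr8:107056627-107056876 on the plus strand for Nip7, chr6:124712179-124712428 on the minus strand for Emg1 and chr13:12395125-12395374 on the plus strand for Heatr1, each written 5′ to 3′ along the gene.
Rrn3: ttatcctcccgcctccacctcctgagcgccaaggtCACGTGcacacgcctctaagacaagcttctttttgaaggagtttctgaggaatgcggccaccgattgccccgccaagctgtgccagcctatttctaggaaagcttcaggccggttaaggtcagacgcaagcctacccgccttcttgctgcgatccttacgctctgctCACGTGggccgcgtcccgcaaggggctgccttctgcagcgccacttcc
Nop2: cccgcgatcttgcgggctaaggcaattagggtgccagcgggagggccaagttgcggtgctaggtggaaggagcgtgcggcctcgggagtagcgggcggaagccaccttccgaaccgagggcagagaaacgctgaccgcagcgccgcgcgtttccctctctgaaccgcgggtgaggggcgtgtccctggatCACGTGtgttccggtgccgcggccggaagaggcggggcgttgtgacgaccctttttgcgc
Nip7: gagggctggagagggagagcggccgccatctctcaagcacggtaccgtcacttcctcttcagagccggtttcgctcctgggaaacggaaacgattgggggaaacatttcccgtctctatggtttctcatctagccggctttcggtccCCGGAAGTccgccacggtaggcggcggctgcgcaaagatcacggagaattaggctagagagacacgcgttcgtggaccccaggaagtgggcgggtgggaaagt
Emg1: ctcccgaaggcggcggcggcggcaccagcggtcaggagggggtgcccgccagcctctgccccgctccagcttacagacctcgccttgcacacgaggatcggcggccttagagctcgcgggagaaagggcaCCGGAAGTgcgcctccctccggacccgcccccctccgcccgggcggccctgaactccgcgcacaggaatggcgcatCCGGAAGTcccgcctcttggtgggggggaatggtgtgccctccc
Heatr1: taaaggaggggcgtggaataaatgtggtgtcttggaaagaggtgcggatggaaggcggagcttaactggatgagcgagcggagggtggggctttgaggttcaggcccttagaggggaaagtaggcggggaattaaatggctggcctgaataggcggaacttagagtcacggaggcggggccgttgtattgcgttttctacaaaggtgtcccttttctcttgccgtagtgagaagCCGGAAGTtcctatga

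Between PL groups, the median log2 fold change of the 9 members with the E-box was 0.59 and that of the 38 without it 0.22. Against In/B it was -0.28 with and -0.73 without the E-box in RA-sufficient PL, and -0.40 and -0.55 in RA-deficient PL. Medians for the 13 members with CCGGAAGT and the 34 without it were -0.87 and -0.70 in RA-sufficient PL against In/B, -0.40 and -0.49 in RA-deficient PL against In/B, and 0.16 and 0.28 between PL groups. These medians are given without a test.

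Most ribosome biogenesis mRNAs were lower in RA-sufficient PL than in In/B. Dkc1, the pseudouridine synthase of the H/ACA snoRNPs, fell furthest with a log2 fold change of -1.99 (SE 0.13, edgeR adjusted p = 1.24e-05), followed by the rRNA methyltransferase Emg1 at -1.74 (SE 0.16, edgeR adjusted p = 3.93e-05). By the adjusted p alone (edgeR's quasi-likelihood test, Benjamini-Hochberg adjustment over 15001 genes, below 0.05), 32 of 53 members (60.4%) were lower, against 31.2% of all genes tested. Only 2 members (3.77%), Rrp1 and Wdr12, were higher, against 33.8% of all genes, and 19 did not pass. With a fold change above 2 as a further condition (an absolute log2 fold change above 1, here "called"), 19 members were lower, against 19.3% of all genes. By that rule 0 members were higher in edgeR and 0 in DESeq2, against 26.1% of all genes in edgeR. By an unadjusted p below 0.05 without the fold condition 2 were higher, a looser rule for which the share of all genes was not counted. The median log2 fold change was -0.71 for the members and 0.04 for all genes tested. With each of the 6 libraries left out in turn, 32 of the 34 members past the adjusted p stayed past it each time, Wdr12 missed it without In/B library 2, and Rrs1 kept it in 1 of the 6 fits.

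From In/B spermatogonia to RA-deficient PL more members were lower than higher. Nip7, a factor of large subunit assembly, fell by 1.64 on the log2 scale (SE 0.17, edgeR adjusted p = 2.88e-04), while Heatr1, a large scaffold of the small subunit processome, rose by 1.03 (SE 0.14, edgeR adjusted p = 0.00117). Of 53 members, 22 (41.5%) were lower and 9 (17%) higher by the adjusted p, against 18.3% and 18.4% of all 14877 genes tested, and 22 did not pass. The share that was higher was thus near that of all genes. With each library left out in turn, 20 of these 31 members stayed past the adjusted p each time, and the other 11 in 2 to 5 of the 6 fits. Called with the fold condition were 7 lower and 2 higher members, against 11.8% and 11.4% of all genes. These counts depended on the scaling and the fit, since library size scaling gave 18 lower and 0 higher calls (34 lower and 5 higher by the adjusted p), and a joint fit of all 9 libraries gave 12 lower and 0 higher calls. The median log2 fold change was -0.46, and that of all genes was 0.00. Scaled by library size alone, the median of all genes in this comparison moved from 0.00 to -0.31 and that of the members to -0.78, so that both moved by nearly the same amount, and Ddx21, Nob1, Npm1, Rrp1 and Rrs1 changed sign. This comparison and the one before share the In/B libraries, and their values for each gene are given side by side without a count of agreement.

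Between PL groups the differences ran mostly toward higher levels in RA-deficient PL. Rrn3, which recruits RNA polymerase I to ribosomal DNA, was higher by 0.88 (SE 0.16, edgeR adjusted p = 0.00879), and Wdr12, of the PeBoW complex of the large subunit, was lower at -1.18 (SE 0.19, edgeR adjusted p = 0.00632). By the adjusted p 13 members (24.5%) were higher, against 11% of all 15352 genes tested, and Wdr12 alone (1.89%) was lower, against 12.6% of all genes. With the fold condition Wdr12 was the 1 lower call, against 11% of all genes, and 0 members were called higher in edgeR and 0 in DESeq2, against 4.47% of all genes in edgeR. At an unadjusted p below 0.05 without the fold condition 19 were higher. The share of all genes was not counted by that looser rule, so the 19 cannot be set beside the 4.47%. The median log2 fold change was 0.27 for the members and -0.09 for all genes. Under library size scaling the median was 0.09 for the members and -0.27 for all genes, 6 members passed the adjusted p (3 higher, 3 lower), and Bms1, Emg1, Noc3l, Nolc1, Pes1, Utp18, Utp6 and Wdr75 changed sign. Of the 14 members, Rrn3 and Wdr12 kept an adjusted p below 0.05 in all 6 fits that left out a library, Ncl in 5, Rrp12 and Wdr43 in 4, Utp20 in 3, Ebna1bp2, Heatr1, Imp4 and Polr1a in 2, Nop2, Npm1 and Rrp1b in 1 and Ddx21 in 0. These fits had 3 to 26 members past it.

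The count of 26 came without RA-deficient PL library 3, the library of that group in which the summed level of the markers of differentiating spermatogonia was low. Of these 26 members, 22 were higher and 4 lower in RA-deficient PL. Called then were Dkc1 at 1.24 (edgeR adjusted p = 0.00156), Nop2 at 1.05 (0.00185) and Rrn3 at 1.00 (0.00115) as higher, and Nop10 at -1.37 (0.00187) and Wdr12 at -1.27 (0.00218) as lower. Members called with the fold condition thus rose from 1 to 5, and over all genes such calls rose as well, from 2383 to 4484. The share of all genes past the adjusted p alone was not counted for this fit, so the 26 members have none beside them. The lowest count, 3, came without RA-deficient PL library 2, counts of 5 without RA-deficient PL library 1 or RA-sufficient PL library 2 or 3, and a count of 8 without RA-sufficient PL library 1.

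The level of the whole set was also taken library by library. The median over members of the log2 ratio to the In/B mean was 0.05, -0.01 and -0.09 in the In/B libraries, -0.83, -0.77 and -0.67 in RA-sufficient PL, and -0.61, -0.58 and -0.64 in RA-deficient PL. For the members every PL library was below every In/B library, and the 3 RA-deficient libraries lay above the 3 RA-sufficient ones. The same median over all tested genes was -0.02, 0.04 and -0.01 in In/B, -0.01, 0.03 and 0.06 in RA-sufficient PL and -0.20, -0.25 and -0.12 in RA-deficient PL. The summed level of the members was 10587, 9828 and 9347 CPM in In/B, 6453, 7208 and 7556 CPM in RA-sufficient PL and 9460, 9509 and 9617 CPM in RA-deficient PL, where it overlapped with In/B. Without Ncl and Npm1, the members of highest count, the sum was 6928 to 7674 CPM in In/B, 4403 to 5044 CPM in RA-sufficient PL and 6032 to 6144 CPM in RA-deficient PL, with no overlap between groups. No test was made of these sums or medians.

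**Figure D1:**
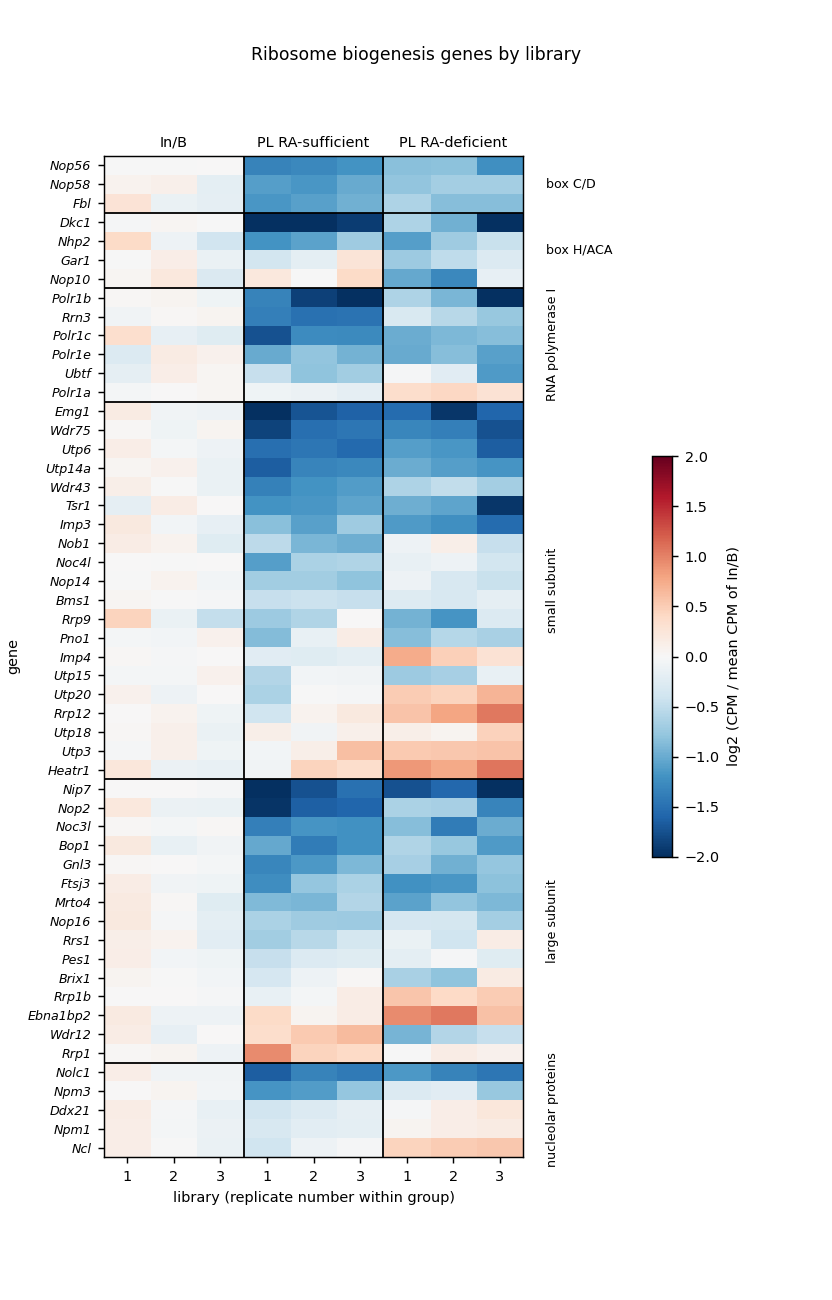
Each row is 1 of the 53 genes and each column 1 of the 9 libraries, and the colour gives log2 of the CPM over the mean CPM of the 3 In/B libraries, with colours full at -2 and 2. Genes are grouped by role and ordered within a group by their change in RA-sufficient PL. Most rows are blue (lower) in both PL groups, and Heatr1, Rrp12, Utp20, Ebna1bp2, Imp4 and Ncl are red (higher) in RA-deficient PL.

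RNA polymerase I and its factors were represented by 6 genes, of which 5 fell from In/B to RA-sufficient PL and 3 fell and 1 rose in RA-deficient PL. Over all genes tested, 31.2% were lower and 33.8% higher by the adjusted p in RA-sufficient PL, and 18.3% lower and 18.4% higher in RA-deficient PL. Rrn3 (mm9 chr16:13780792-13814933, plus strand) makes the polymerase competent to start transcription. It was measured at 194, 207 and 212 CPM in In/B, 79.6, 72.7 and 73.6 CPM in RA-sufficient PL and 166, 139 and 121 CPM in RA-deficient PL. The RA-deficient libraries lay between the other groups, with no overlap on either side. Against In/B the log2 fold change was -1.39 (SE 0.11, edgeR adjusted p = 2.11e-05) in RA-sufficient PL and -0.39 (SE 0.14, edgeR adjusted p = 0.0624) in RA-deficient PL.

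Polr1b (mm9 chr2:128926731-128952330, plus strand), the second-largest subunit and part of the catalytic centre, was measured at 126, 128 and 117 CPM in In/B, 48.9, 33.9 and 29.8 CPM in RA-sufficient PL and 80.3, 65.6 and 30.5 CPM in RA-deficient PL. Library 3 of RA-deficient PL lay within the RA-sufficient range and libraries 1 and 2 above it. The log2 fold change against In/B was -1.67 (SE 0.19, edgeR adjusted p = 1.16e-04) in RA-sufficient PL and -0.94 (SE 0.32, edgeR adjusted p = 0.0491) in RA-deficient PL, the latter lost without any In/B library and without RA-deficient PL library 2 (highest adjusted p 0.127). Polr1a, the largest subunit, was measured at 150.1, 154 and 158 CPM in In/B, 145, 143 and 137 CPM in RA-sufficient PL and 196, 205 and 188 CPM in RA-deficient PL. All RA-deficient libraries were above all others, with log2 fold changes of 0.48 (SE 0.11, edgeR adjusted p = 0.0101) against In/B and 0.44 (SE 0.11, edgeR adjusted p = 0.0267) against RA-sufficient PL. The first was lost without In/B library 2 (adjusted p = 0.0622). The second was lost without RA-deficient PL library 1 or 2 or RA-sufficient PL library 2 or 3 (highest adjusted p 0.108). Polr1a and Polr1b, which form the active site together, thus had log2 fold changes of -0.08 and -1.67 in RA-sufficient PL, of which Polr1b alone passed the test.

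Ubtf, the architectural protein of active ribosomal genes and the member of this role with the highest CPM, was measured at 225, 278 and 261 CPM in In/B, 185, 146 and 157 CPM in RA-sufficient PL and 250, 217 and 116 CPM in RA-deficient PL. It fell in RA-sufficient PL with a log2 fold change of -0.60 (SE 0.13, edgeR adjusted p = 0.00349), and in RA-deficient PL library 3 stood apart below the other 8 libraries. Polr1e, a subunit of the initiation-competent enzyme, was measured at 27.7, 37.3 and 35.4 CPM in In/B, 16.6, 19.3 and 17.4 CPM in RA-sufficient PL and 16.6, 18.5 and 15.8 CPM in RA-deficient PL. Its level was lower in all PL libraries than in any In/B library, with log2 fold changes of -0.87 (SE 0.19, edgeR adjusted p = 0.00339) in RA-sufficient and -0.85 (SE 0.21, edgeR adjusted p = 0.0145) in RA-deficient PL, the latter lost without In/B library 2 or 3 (highest adjusted p 0.0801). Polr1c, a subunit that RNA polymerase III also uses, fell with log2 fold changes of -1.36 (SE 0.21, edgeR adjusted p = 5.79e-04) in RA-sufficient PL and -0.78 (SE 0.19, edgeR adjusted p = 0.0154) in RA-deficient PL.

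The box C/D snoRNP proteins, which carry out 2′-O-methylation of rRNA, were represented by 3 members, which fell together. All 3 were lower by the adjusted p in both PL groups against In/B. Over all genes tested 31.2% were lower in RA-sufficient PL and 18.3% in RA-deficient PL. Nop58 (mm9 chr1:59741853-59768968, plus strand), one of the paired scaffold proteins, was measured at 354, 358 and 294 CPM in In/B, 157, 150.5 and 167 CPM in RA-sufficient PL and 194, 209 and 209 CPM in RA-deficient PL. Its partner Nop56 was measured at 217, 217 and 219 CPM in In/B, 86.0, 89.0 and 95.2 CPM in RA-sufficient PL and 121, 124 and 93.4 CPM in RA-deficient PL. For both genes every PL library was below every In/B library. The log2 fold changes of Nop56 were -1.23 (SE 0.10, edgeR adjusted p = 2.88e-05) in RA-sufficient PL and -0.82 (SE 0.14, edgeR adjusted p = 0.00318) in RA-deficient PL, and those of Nop58 were -1.04 (SE 0.12, edgeR adjusted p = 1.07e-04) and -0.59 (SE 0.11, edgeR adjusted p = 0.00546). Fbl, the methyltransferase itself, had log2 fold changes of -1.03 (SE 0.16, edgeR adjusted p = 6.21e-04) and -0.64 (SE 0.18, edgeR adjusted p = 0.0237), of which the first came to -0.88 without In/B library 1 and -0.99 without RA-sufficient PL library 1, and the second was lost without In/B library 1 or RA-deficient PL library 2 (highest adjusted p 0.0739). Between PL groups the 3 genes had values of 0.27 to 0.34, and none passed the test (edgeR adjusted p = 0.051 for the lowest, Nop58).

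The box H/ACA snoRNP proteins, which turn uridine into pseudouridine and are also part of telomerase, did not move together. Dkc1 (mm9 chrX:72341193-72355116, plus strand), their catalytic subunit dyskerin, was measured at 126, 131 and 127 CPM in In/B, 28.6, 30.6 and 34.3 CPM in RA-sufficient PL and 83.6, 66.1 and 25.4 CPM in RA-deficient PL. RA-deficient PL libraries 1 and 2 lay between In/B and RA-sufficient PL and library 3 below every other library, the widest spread of any member in a group (SD 0.91 on the log2 scale). The log2 fold change of Dkc1 was -1.0 (SE 0.37, edgeR adjusted p = 0.0691) in RA-deficient PL against In/B and 0.88 (SE 0.40, edgeR adjusted p = 0.155) against RA-sufficient PL, and without library 3 the latter was 1.24 with an adjusted p of 0.00156.

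Nop10, the smallest core protein of the H/ACA particle, was measured at 46.6, 52.5 and 37.4 CPM in In/B, 52.7, 45.4 and 59.5 CPM in RA-sufficient PL and 22.5, 18.7 and 40.5 CPM in RA-deficient PL. Its RA-deficient PL libraries lay below all RA-sufficient ones, at a log2 fold change of -0.98 (SE 0.31, edgeR adjusted p = 0.0555), and at -1.37 (adjusted p = 0.00187) without RA-deficient PL library 3. Against In/B its value was 0.25 (SE 0.18, edgeR adjusted p = 0.233) in RA-sufficient PL. Nhp2, another core protein, was measured at 89.2, 64.0 and 52.5 CPM in In/B, 30.0, 32.8 and 42.0 CPM in RA-sufficient PL and 31.9, 42.0 and 50.5 CPM in RA-deficient PL, and fell in RA-sufficient PL with a log2 fold change of -0.93 (SE 0.22, edgeR adjusted p = 0.00617). Gar1 had values of -0.03 and -0.36 against In/B and passed neither test.

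Among the 20 small subunit factors, 11 were lower in RA-sufficient PL than in In/B (all genes 31.2%), and in RA-deficient PL 8 were lower (all genes 18.3%) and 5 higher (25%, near the 18.4% of all genes). Emg1 (mm9 chr6:124654399-124662196, minus strand), whose promoter is shown above, methylates a pseudouridine of 18S rRNA. It was measured at 147, 126 and 123 CPM in In/B, 31.5, 40.0 and 42.8 CPM in RA-sufficient PL and 45.3, 34.1 and 44.0 CPM in RA-deficient PL. Both PL groups lay far below In/B and overlapped with each other. In RA-deficient PL the log2 fold change against In/B was -1.55 (SE 0.17, edgeR adjusted p = 3.54e-04), and between PL groups it was 0.08 (SE 0.20, edgeR adjusted p = 0.798).

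Wdr75 and Wdr43 belong to the subcomplex of the processome that first binds the nascent precursor and is tied to its transcription. Wdr75 was measured at 199.8, 185 and 203 CPM in In/B, 54.1, 68.6 and 72.2 CPM in RA-sufficient PL and 79.2, 76.0 and 58.4 CPM in RA-deficient PL, and fell with log2 fold changes of -1.54 (SE 0.14, edgeR adjusted p = 3.88e-05) in RA-sufficient and -1.33 (SE 0.15, edgeR adjusted p = 5.20e-04) in RA-deficient PL. Wdr43 was measured at 256, 235 and 216 CPM in In/B, 92.7, 102 and 109 CPM in RA-sufficient PL and 154, 167 and 147 CPM in RA-deficient PL. Here the RA-deficient libraries lay between the other groups without overlap, with log2 fold changes of -1.17 (SE 0.12, edgeR adjusted p = 6.95e-05) for RA-sufficient PL, -0.46 (SE 0.12, edgeR adjusted p = 0.0182) for RA-deficient PL and 0.59 (SE 0.12, edgeR adjusted p = 0.0127) between PL groups. The fall of Wdr43 in RA-deficient PL was lost without In/B library 2 or RA-deficient PL library 1 (highest adjusted p 0.0635). Its difference between PL groups was lost without library 2 of either PL group (highest adjusted p 0.0626).

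Heatr1 (mm9 chr13:12487665-12530944, plus strand), a further protein of that subcomplex, was measured at 341, 267 and 262 CPM in In/B, 276, 394 and 372 CPM in RA-sufficient PL and 531, 489 and 610.2 CPM in RA-deficient PL. All RA-deficient PL libraries were above all others. Against RA-sufficient PL the log2 fold change was 0.61 (SE 0.15, edgeR adjusted p = 0.0238), and in RA-sufficient PL against In/B it was 0.31 (SE 0.17, edgeR adjusted p = 0.14). Heatr1 in RA-deficient PL against In/B stood close to the fold threshold and came to 0.95 to 0.96 without In/B library 2 or 3 or RA-deficient PL library 3, with the adjusted p still below 0.05. Utp15, of the same subcomplex, had values of -0.17 and -0.36 against In/B and did not pass.

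Utp6, of the second subcomplex that joins the precursor, was measured at 196, 173 and 167 CPM in In/B, 63.1, 65.8 and 60.9 CPM in RA-sufficient PL and 83.0, 80.2 and 56.7 CPM in RA-deficient PL. It fell with a log2 fold change of -1.45 (SE 0.12, edgeR adjusted p = 2.62e-05) in RA-sufficient PL and of -1.16 (SE 0.18, edgeR adjusted p = 0.0018) in RA-deficient PL, where the value was -1.0 without library 3. Utp18, of the same subcomplex, had values of 0.10 and 0.35 and did not pass.

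Utp20, a very large scaffold protein and the small subunit factor with the highest CPM, was measured at 402, 351 and 379 CPM in In/B, 243, 377 and 372 CPM in RA-sufficient PL and 537, 512 and 604 CPM in RA-deficient PL. RA-deficient PL was above the other groups, which overlapped, with 0.67 (SE 0.11, edgeR adjusted p = 0.00253) against In/B and 0.71 (SE 0.16, edgeR adjusted p = 0.0222) against RA-sufficient PL. Rrp12, a HEAT-repeat factor of precursor export and late maturation, was measured at 199, 208 and 187 CPM in In/B, 151, 208 and 228 CPM in RA-sufficient PL and 294, 344 and 412 CPM in RA-deficient PL. Its RA-deficient libraries were all above all others, by 0.95 (SE 0.14, edgeR adjusted p = 0.00151) against In/B and 0.81 (SE 0.18, edgeR adjusted p = 0.0177) against RA-sufficient PL. Imp4, which helps the U3 snoRNA pair with the precursor, was measured at 79.4, 77 and 78.3 CPM in In/B, 66.7, 66.0 and 68.7 CPM in RA-sufficient PL and 132, 108 and 95.3 CPM in RA-deficient PL. The RA-deficient level was higher by 0.64 (SE 0.15, edgeR adjusted p = 0.0132) than In/B and by 0.70 (SE 0.16, edgeR adjusted p = 0.0192) than RA-sufficient PL. Both differences of Imp4 depend on single libraries, the first being lost without In/B library 2 or 3 or RA-deficient PL library 1 (highest adjusted p 0.0674) and the second without RA-deficient PL library 1 or any RA-sufficient library (0.0816). Its partner Imp3 fell in RA-deficient PL with a log2 fold change of -1.16 (SE 0.25, edgeR adjusted p = 0.00878), opposite to Imp4.

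The other small subunit factors are given by their log2 fold changes. Lower in RA-sufficient PL were Utp14a (-1.36), the GTPase-related Tsr1 (-1.09), Imp3 (-0.82), the nuclease of the last cut Nob1 (-0.75), Noc4l (-0.71), Nop14 (-0.69) and the GTPase Bms1 (-0.40). In RA-deficient PL Utp14a (-0.96), Tsr1 (-1.14) and the Nob1 partner Pno1 (-0.56) were lower and Utp3 (0.68) was higher, while Nob1 (0.00), Noc4l (-0.07), Nop14 (-0.15) and Bms1 (-0.12) did not pass. Pno1 was lost without any In/B library or without RA-deficient PL library 1 (highest adjusted p 0.151), and Tsr1 without In/B library 2 (0.0529), with a log2 fold change of -0.88 without RA-deficient PL library 3. Rrp9, a protein of the U3 snoRNP, had values of -0.36 and -0.62 and passed neither test.

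**Figure D2:**
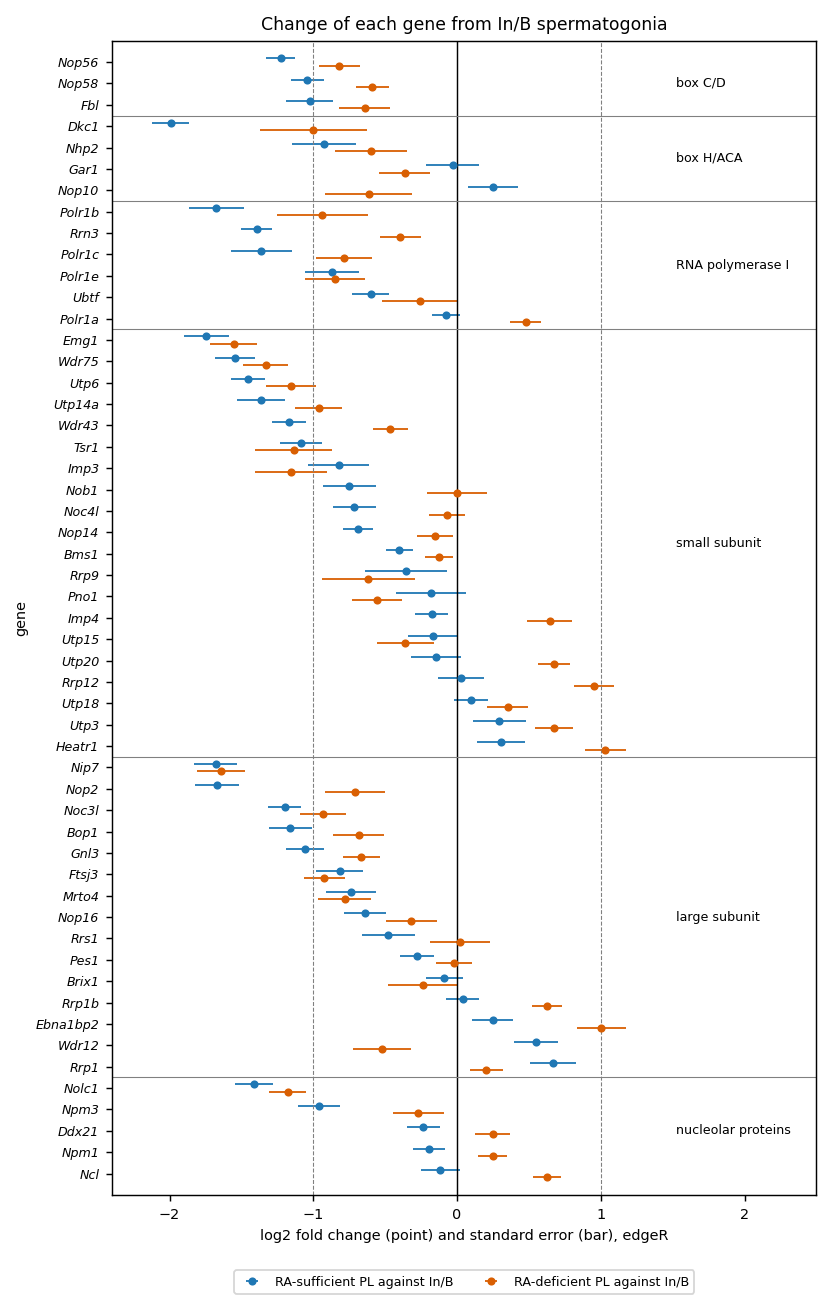
Points give the fitted log2 fold change of each of the 53 genes from In/B to RA-sufficient PL (blue) and to RA-deficient PL (orange), and bars give its standard error. The dashed lines mark the fold condition at -1 and 1. Blue points reach from -1.99 (Dkc1) to 0.67 (Rrp1), and orange points from -1.64 (Nip7) to 1.03 (Heatr1).

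Among the 15 large subunit factors measured, 9 were lower and 2 higher in RA-sufficient PL, and 7 were lower and 2 higher in RA-deficient PL, against the same shares of all genes. Nip7 (mm9 chr8:109580777-109584826, plus strand), whose promoter is shown above, was measured at 131, 131 and 128 CPM in In/B, 32.5, 39.0 and 46.2 CPM in RA-sufficient PL and 39.0, 43.9 and 31.1 CPM in RA-deficient PL. Both PL groups lay far below In/B and overlapped, with log2 fold changes of -1.68 (SE 0.15, edgeR adjusted p = 3.86e-05) and -1.64 (SE 0.17, edgeR adjusted p = 2.88e-04) against In/B and -0.07 (SE 0.21, edgeR adjusted p = 0.826) between PL groups. Nop2 (mm9 chr6:125081901-125094771, plus strand), a methyltransferase of the large subunit rRNA, was measured at 209, 166 and 164 CPM in In/B, 46.4, 57.8 and 59.9 CPM in RA-sufficient PL and 116, 113 and 71.8 CPM in RA-deficient PL. The RA-deficient libraries lay between the other groups, with log2 fold changes of -1.67 (SE 0.16, edgeR adjusted p = 4.62e-05) for RA-sufficient PL, -0.71 (SE 0.21, edgeR adjusted p = 0.0309) for RA-deficient PL and 0.85 (SE 0.22, edgeR adjusted p = 0.03) between PL groups. Without single libraries other than RA-deficient PL library 3 the difference between PL groups did not pass (highest adjusted p 0.0964), and without that library it was 1.05 with an adjusted p of 0.00185. Against In/B the fall in RA-deficient PL was lost without any In/B library or without RA-deficient PL library 2 (highest adjusted p 0.105).

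The 3 proteins of the PeBoW complex, Pes1, Bop1 and Wdr12, which work together in processing of the large subunit rRNA, had values in different directions. Wdr12 (mm9 chr1:60133712-60155489, minus strand) was measured at 44.1, 35.4 and 39.8 CPM in In/B, 50.8, 56.9 and 61.6 CPM in RA-sufficient PL and 20.9, 26.5 and 28.7 CPM in RA-deficient PL. The RA-sufficient libraries were all above and the RA-deficient libraries all below In/B. The log2 fold change against In/B was 0.55 (SE 0.15, edgeR adjusted p = 0.0123) in RA-sufficient PL, with an adjusted p of 0.0695 when In/B library 2 was left out, and -0.52 (SE 0.20, edgeR adjusted p = 0.0801) in RA-deficient PL. Bop1 fell with a log2 fold change of -1.16 (SE 0.15, edgeR adjusted p = 2.09e-04) in RA-sufficient PL and of -0.68 (SE 0.18, edgeR adjusted p = 0.0192) in RA-deficient PL, the latter lost without In/B library 1 or 3 or RA-deficient PL library 2 (highest adjusted p 0.0643). Pes1 had values of -0.28 and -0.02 and did not pass.

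Ftsj3, a methyltransferase of the large subunit precursor and the member of this role with the highest CPM, was measured at 292, 252 and 248 CPM in In/B, 112, 154 and 169 CPM in RA-sufficient PL and 114, 118 and 149.6 CPM in RA-deficient PL. Its PL libraries were all below In/B, with log2 fold changes of -0.82 (SE 0.17, edgeR adjusted p = 0.00238) in RA-sufficient and -0.92 (SE 0.14, edgeR adjusted p = 0.00198) in RA-deficient PL. The relatives Rrp1b and Rrp1 were highest in different PL groups. Rrp1b was measured at 151, 150.3 and 147 CPM in In/B, 135, 146 and 166 CPM in RA-sufficient PL and 221, 198 and 214 CPM in RA-deficient PL, and was higher in RA-deficient PL than in In/B by 0.62 (SE 0.11, edgeR adjusted p = 0.00286) and than in RA-sufficient PL by 0.47 (SE 0.11, edgeR adjusted p = 0.0216). Rrp1 was measured at 148, 151 and 136 CPM in In/B, 279.8, 198 and 191 CPM in RA-sufficient PL and 143, 161 and 153 CPM in RA-deficient PL, and was higher in RA-sufficient PL than in In/B by 0.67 (SE 0.16, edgeR adjusted p = 0.00534). Ebna1bp2, a scaffold of the early large subunit particle, was measured at 103, 84.6 and 84.5 CPM in In/B, 119, 94.1 and 101 CPM in RA-sufficient PL and 175, 189 and 136 CPM in RA-deficient PL. Every RA-deficient library was above all others, by 1.00 (SE 0.17, edgeR adjusted p = 0.00285) against In/B, which came to 0.87 to 0.95 without In/B library 2 or 3 or RA-deficient PL library 1 or 2, and 0.64 (SE 0.18, edgeR adjusted p = 0.0382) against RA-sufficient PL.

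The remaining large subunit factors followed the main direction or did not pass. Noc3l (-1.20 and -0.93), the nucleolar GTPase Gnl3 (-1.06 and -0.67) and Mrto4 (-0.74 and -0.78) were lower than In/B in RA-sufficient and RA-deficient PL, with Gnl3 at -0.97 in RA-sufficient PL without library 1 of that group and Mrto4 lost in RA-deficient PL without In/B library 2 (adjusted p = 0.0537). Nop16 (-0.64) and Rrs1 (-0.48), which helps to bring in the 5S rRNA, were lower in RA-sufficient PL. Brix1 had values of -0.09 and -0.23 and did not pass, and its RA-deficient PL libraries ran from 70.6 to 138 CPM.

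The abundant nucleolar proteins had the highest levels of the set. Per kilobase of exon, over the 9 libraries, Npm1 (318 CPM per kb) and Ncl (237 CPM per kb) were at the 99.7th and 99.6th percentile. These are percentiles of the tested genes with a length. Polr1e was the lowest member at 5.83 CPM per kb and the 48.4th percentile. Nucleolin, the product of Ncl (mm9 chr1:88241294-88256030, minus strand), binds the rRNA precursor and ribosomal DNA chromatin. It was measured at 1960, 1762 and 1617 CPM in In/B, 1353, 1659 and 1757 CPM in RA-sufficient PL and 2415, 2525 and 2593 CPM in RA-deficient PL. All RA-deficient libraries were above all others, by 0.63 (SE 0.09, edgeR adjusted p = 0.00174) against In/B and 0.63 (SE 0.11, edgeR adjusted p = 0.00845) against RA-sufficient PL, the latter at an adjusted p of 0.0511 without RA-deficient PL library 2.

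Npm1, a chaperone that gives the nucleolus its granular layer, was measured at 953, 845 and 802 CPM in In/B, 696, 752 and 755 CPM in RA-sufficient PL and 900.1, 951 and 976 CPM in RA-deficient PL. It was higher in RA-deficient than in RA-sufficient PL by 0.33 (SE 0.09, edgeR adjusted p = 0.0374), a difference lost in 5 of 6 fits without 1 library (highest adjusted p 0.14). Nolc1 (mm9 chr19:46150353-46160018, plus strand), a chaperone of snoRNPs, was measured at 288, 251 and 249.8 CPM in In/B, 83.5, 104 and 99.0 CPM in RA-sufficient PL and 118, 104 and 96.7 CPM in RA-deficient PL. Both PL groups lay below In/B and overlapped, with -1.41 (SE 0.13, edgeR adjusted p = 4.23e-05) and -1.18 (SE 0.13, edgeR adjusted p = 4.23e-04) against In/B. Npm3 was measured at 91.3, 94.0 and 87.3 CPM in In/B, 40.3, 42.0 and 53.1 CPM in RA-sufficient PL and 75.2, 78.0 and 53.5 CPM in RA-deficient PL, and fell in RA-sufficient PL with a log2 fold change of -0.96 (SE 0.15, edgeR adjusted p = 5.11e-04). Ddx21, an RNA helicase that senses RNA polymerase I and II activity, had a log2 fold change of 0.37 (SE 0.10, edgeR adjusted p = 0.0425) between PL groups that was lost in each of the 6 fits without 1 library (highest adjusted p 0.141).

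**Figure D3:**
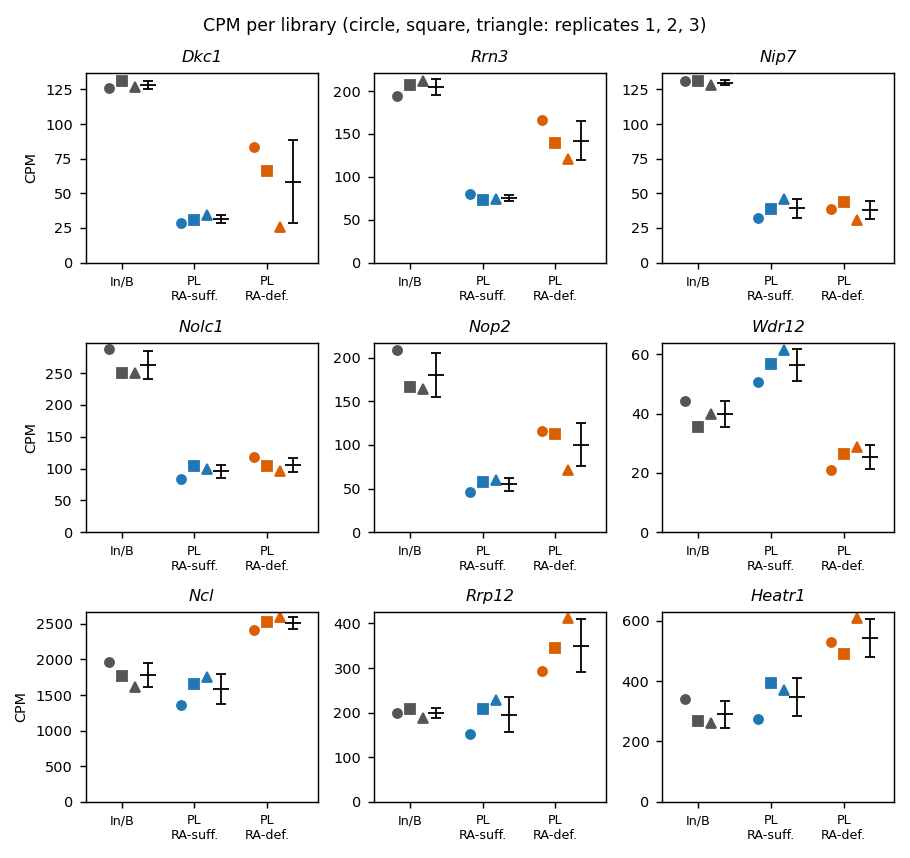
CPM of 9 members in each library, with circles, squares and triangles for replicates 1, 2 and 3, and the mean and SD of the 3 libraries beside them as a bar. By group mean, Dkc1, Rrn3 and Nop2 are lowest in RA-sufficient PL. Nip7 and Nolc1 are low in both PL groups, and Ncl, Rrp12 and Heatr1 are highest in RA-deficient PL. Replicate 3 of RA-deficient PL (triangle) is low for Dkc1 (25.4 CPM) and Nop2 (71.8 CPM).

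The spread between libraries of a group was set beside that of all tested genes, without adjustment for level. The median SD on the log2 scale was 0.12 in In/B, 0.18 in RA-sufficient PL and 0.22 in RA-deficient PL for the members, and 0.25, 0.28 and 0.41 for all tested genes. In RA-deficient PL 7 members had an SD above 0.4, against 1 in each of the other groups. Library 3 of RA-deficient PL was lower than the mean of libraries 1 and 2 by over 0.5 on the log2 scale for Dkc1 (-1.54), Polr1b (-1.25), Ubtf (-1.01), Tsr1 (-0.92), Nop2 (-0.68), Utp6 (-0.52) and Npm3 (-0.52). It was higher by as much for Nop10 (0.98), Brix1 (0.89), Rrp9 (0.79) and Utp15 (0.56). Over all members the median size of this difference, whatever its sign, was 0.33, against a median gap of 0.16 between libraries 1 and 2, and the signed median was 0.01. Among 15850 tested genes 4004 were lower and 4397 higher by over 0.5.

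Exon length was set beside the change. The 11 members with under 2000 bases of exon had a median log2 fold change of -0.82 in RA-sufficient PL and -0.60 in RA-deficient PL against In/B. In the 19 members with 4000 bases or more it was -0.23 and -0.26. All tested genes had medians of 0.19 and -0.09 in the short class and -0.02 and 0.09 in the long class. Across the 53 genes, which were read in the same libraries and are not independent, Spearman's rho of length and change was 0.09 in RA-sufficient PL, 0.17 in RA-deficient PL and 0.26 between PL groups, against -0.06, 0.07 and 0.17 over all genes. The part of length in the results was not tested.

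Other genes of the pathway were counted from lists of textbook members. Of 90 tested further ribosome biogenesis genes, 50 were lower and 8 higher in RA-sufficient PL than in In/B (55.6% and 8.89%, all genes 31.2% and 33.8%, median -0.61). In RA-deficient PL 34 were lower and 16 higher (37.8% and 17.8%, all genes 18.3% and 18.4%, median -0.33), so the share that was higher was near that of all genes. Between PL groups 15 were higher and 1 lower in RA-deficient PL (16.7% and 1.11%, all genes 11% and 12.6%, median 0.17). The lowest p in RA-sufficient PL belonged to Nle1, a factor of late large subunit assembly, from 41.2 ± 4.95 (SD, n = 3) to 5.42 ± 0.42 CPM, Cirh1a (now Utp4) from 319 ± 18.6 to 83.2 ± 13.6 CPM and Taf1d, of the promoter factor of RNA polymerase I, from 178 ± 16.8 to 63.1 ± 1.63 CPM. Their log2 fold changes were -2.88, -1.89 and -1.45. Naf1, which assembles H/ACA snoRNPs before Gar1 takes its place, rose from 39.3 ± 2.51 CPM in In/B to 158 ± 13.9 CPM in RA-deficient PL against 61.8 ± 3.49 CPM in RA-sufficient PL. Its log2 fold change was 2.14 (SE 0.14, edgeR adjusted p = 5.86e-05) against In/B and 1.33 (SE 0.12, edgeR adjusted p = 0.00107) between PL groups. Dhx37, a helicase of the small subunit, rose in RA-deficient PL against In/B by 1.39 and Ltv1, a factor of late small subunit maturation, by 1.55. Tex10 at 0.54 and Wdr46 at 0.69 were higher in RA-deficient than in RA-sufficient PL.

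The 23 genes of the RNA exosome and of RNase MRP, which trim and cut the precursor, had a median of -1.0 in RA-sufficient PL (15 lower and 1 higher, 65.2% and 4.35%), -0.37 in RA-deficient PL (10 lower and 2 higher, 43.5% and 8.7%) and 0.07 between PL groups (2 higher, 8.7%), to be read against the same shares of all genes. Pop1 and Pop5, protein subunits of RNase MRP, fell by 2.19 and 2.08 on the log2 scale in RA-sufficient PL, and Dis3, the nuclease of the exosome, had log2 fold changes of -1.68 there and -1.15 in RA-deficient PL. Rpp21, of RNase P, rose from 7.02 ± 2.79 to 39.3 ± 3.28 CPM in RA-deficient PL, and Rpp14 fell by 1.33. Between PL groups Skiv2l2 (now Mtrex), the helicase that feeds the exosome, was higher by 0.56 and Exosc8 by 0.81.

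Ribosomal protein and other polymerase genes were counted beside the members. Of 74 tested cytosolic ribosomal protein genes 56 were lower in RA-sufficient PL (75.7%, all genes 31.2%, median -1.05), 37 were lower and 6 higher in RA-deficient PL (50% and 8.11%, all genes 18.3% and 18.4%, median -0.45) and 28 were higher in RA-deficient than in RA-sufficient PL (37.8%, all genes 11%, median 0.47). Of 78 mitochondrial ribosomal protein genes 40 were lower and 8 higher in RA-sufficient PL (51.3% and 10.3%, median -0.49), 26 were lower and 5 higher in RA-deficient PL (33.3% and 6.41%, median -0.42), and 1 was higher and 1 lower between PL groups (1.28% each, median -0.07). Subunits of RNA polymerase II had medians of -1.35 (6 of 7 lower) in RA-sufficient and -1.10 (5 of 7 lower) in RA-deficient PL. Polr2a, its largest subunit, rose in RA-deficient PL from 1959 ± 180.1 to 5182 ± 190 CPM (log2 fold change 1.53), and Polr2j did not pass there (-0.21). In RA-sufficient PL Polr2a was the subunit that did not pass (-0.23). Subunits of RNA polymerase III, which makes 5S rRNA and tRNA, had medians of -0.86 (8 of 10 lower) and -0.51 (5 of 10 lower), with Polr3g lowest in RA-sufficient PL at -1.50. In the 5 subunits that polymerases share, medians were -0.83 and -0.52 and Polr2e was higher by 1.12 in RA-deficient than in RA-sufficient PL. No list was tested as a whole.

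**Figure D4:**
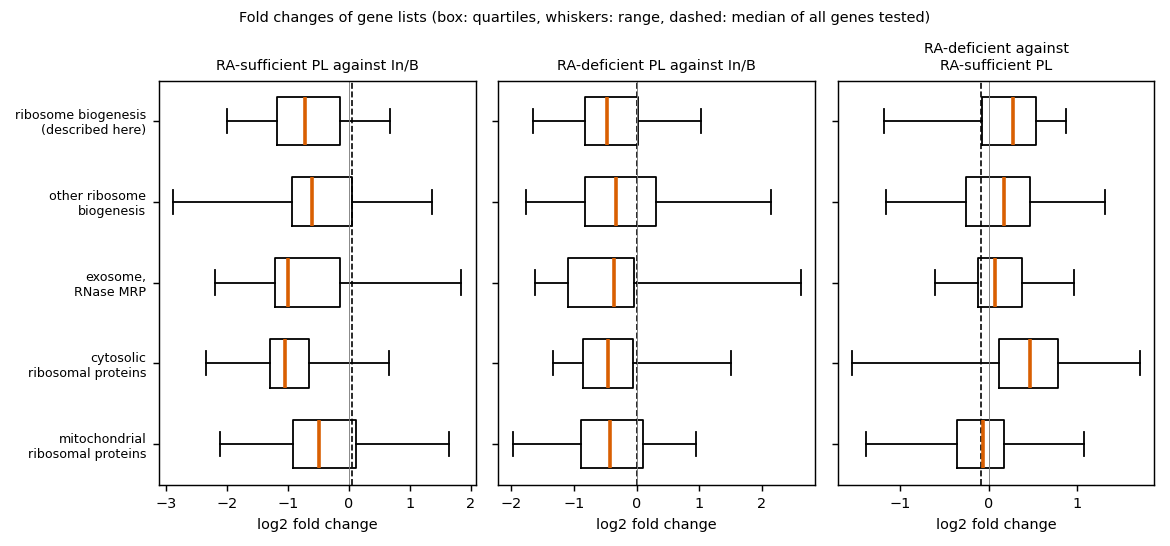
Boxes give the quartiles and whiskers the full range of log2 fold changes in 5 gene lists, 1 panel for each comparison, with the list's median in orange and the median of all genes tested as a dashed line. In the first panel all 5 medians lie below the dashed line (-1.05 to -0.49), and in the third panel that of the cytosolic ribosomal proteins is highest at 0.47.

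Counts of some members carry a limit from their neighbours or copies. In the GENCODE M1 models of mm9, 15 members overlap exons of a gene on the opposite strand, most of all Tsr1, with 1240 bases (32.3% of its exons) shared with Srr, and Utp14a with 11.5%. Whether strand was used in counting is not given in the sources used here, so reads of such partners may be included. Near-identical copies of the transcript, at 95% identity or more over at least 50% of its length, lie elsewhere in the genome for Npm1 (3), Mrto4 (2), Fbl (1), Pes1 (1) and Npm3 (1), and their counts are uncertain to that extent.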

How the data were processed

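mRNA was measured in 9 libraries, 3 of each group. Per the study's methods, the authors prepared TruSeq Stranded mRNA libraries, used cutadapt 1.9 on single-end reads, STAR 2.5.2b for alignment to mm9 and featureCounts for counts per gene. The deposited values are raw counts of 24505 genes without normalization. The annotation and the strand setting of the counting are not given in the sources used here, and the counts per library and the CPM that 3 counts are worth are given with the libraries. Columns were matched to samples by name, with 0 left unused. Pairs of groups were compared with edgeR 4.0.16 in R 4.3.3 (TMM scaling, filterByExpr, quasi-likelihood test, Benjamini-Hochberg adjustment over all genes tested), and the script was tested on simulated data. Only the 6 libraries compared entered a fit. CPM are counts over the TMM-scaled library size of all 9 libraries.

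Members, lists, motifs and tests were chosen with earlier results of these data known. Values per library are given for the 2 members of each role with the lowest p in each comparison and the one with the highest CPM, and for members called between PL groups. Heatr1, Imp4, Ebna1bp2 and Rrp1 were added after their values were seen, as were single values of other members, while other pathway genes are the 3 with the lowest p per list and comparison. Alternatives were RLE factors, library size scaling, no filter, a filter at a mean of 50 counts, a joint fit over the 9 libraries, a block for the replicate number, DESeq2 1.42.0, a test against a fold change of 2, and each library left out in turn. Same-numbered libraries correlated at -0.25 to 0.12 in their deviations from group means, so the numbers were not taken as pairs. Copies were searched with minimap2 2.31 and figures drawn with matplotlib 3.10.9.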

Additional observations from a re-analysis of the deposited data

Results flagged for a closer look

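A direct test between PL groups separated 14 members (edgeR's quasi-likelihood test, adjusted p below 0.05 over 15352 genes). For these the fitted change from In/B differed between RA-sufficient and RA-deficient PL. Of the members 24.5% were higher and 1.89% lower in RA-deficient PL, against 11% and 12.6% of all genes tested. Rrn3 and Wdr12 alone passed in all 6 fits that left out a library, and 6 members passed under library size scaling. Higher in RA-deficient PL, by log2 fold change, were Rrn3 (0.88), Nop2 (0.85), Rrp12 (0.81), Utp20 (0.71), Imp4 (0.70), Ebna1bp2 (0.64), Ncl (0.63), Heatr1 (0.61), Wdr43 (0.59), Rrp1b (0.47), Polr1a (0.44), Ddx21 (0.37) and Npm1 (0.33), and Wdr12 (-1.18) was lower. The libraries of the PL groups did not overlap for any of the 14. This adds no support, since the 14 were picked by that test on the same libraries. Of all 53 members, 27 had no overlap between PL groups, and that share of all genes was not counted. The In/B level stood above both PL groups for Rrn3, Nop2 and Wdr43, whereas for Heatr1, Utp20, Rrp12, Imp4, Ebna1bp2, Ncl, Rrp1b and Polr1a the RA-deficient level was above In/B too by the adjusted p.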

How the results depend on the processing

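Over the 9 counts and medians of the 3 comparisons, RLE factors, both filters and DESeq2 moved none beyond the spread or 1.5 times. With library size scaling, RA-deficient PL had 18 calls against In/B, each of them lower (main 9, of which 7 lower and 2 higher), with 2 calls between PL groups (main 1), 6 members instead of 14 passed the adjusted p between PL groups, and medians were -0.78 (main -0.46) and 0.0868 (main 0.27). A single fit of all 9 libraries gave a median of -0.59 in RA-deficient PL against In/B, with 12 lower and 0 higher calls. Tested against a fold change of 2, RA-sufficient PL had 11 called members against In/B (main 19), RA-deficient PL had 2, and 0 were called between PL groups, where 1 was called by the main rule with 14 at an adjusted p below 0.05. With the replicate block, 2 were called between PL groups, Nop2, Npm1, Polr1a and Ddx21 missed the adjusted p there, and Nop10 passed it and was called. Against In/B with the block, Dkc1 and Polr1b gained a call and Ebna1bp2 (0.9971) lost its call in RA-deficient PL, where Pno1 missed the adjusted p, as Rrs1 did in RA-sufficient PL. Among the 53 members no other call or side of the adjusted p changed with the block. With 1 library left out, the median in RA-deficient PL against In/B ran from -0.54 to -0.38, and between PL groups calls ran from 1 to 5 and members past the adjusted p from 3 to 26. Signs changed for 10 of the 28 named members. In RA-sufficient PL against In/B these were Rrp12 (-0.0032 without a filter, -0.0192 in the fit of 9 libraries, -0.10 to 0.18 with 1 library left out), Rrp1b (-0.0065 in the fit of 9 libraries, -0.0422 to 0.10) and Utp20 (-0.25 to 0.0273). In RA-deficient PL against In/B these were Npm1 (-0.0683 by library size) and Ubtf (-0.50 to 0.0103). Between PL groups these were Emg1 (-0.11 by library size, -0.023 to 0.207 with 1 library left out), Nip7 (-0.18 to 0.0588), Nolc1 (-0.0612 by library size), Utp6 (-0.0012) and Wdr75 (-0.0803). Of the other 25 members, library size scaling changed the sign of Ddx21 (-0.0714), Nob1 (-0.3156), Rrp1 (-0.1137) and Rrs1 (-0.2991) in RA-deficient PL against In/B and of Bms1, Noc3l, Pes1 and Utp18 (-0.0454 to -0.0194) between PL groups. With 1 library left out, the sign changed for Gar1 and Pno1 in RA-sufficient PL, for Nob1, Noc4l, Pes1 and Rrs1 in RA-deficient PL (each against In/B) and for Tsr1 between PL groups. The cause of these changes was not tested. With 3 libraries per group, small differences cannot be separated from the spread.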
